A study of Homo sapiens with 8 samples.

Results

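The comparison described here sets SUM159 trailblazer cells in which ΔNp63α was induced with doxycycline against the same cells left uninduced. It rests on 4 of the 8 arrays of the series, chosen by their labels: 2 arrays of cells that carry the ΔNP63α-V5_pLIX vector and received 1 ug/ml doxycycline, and 2 arrays of that line without doxycycline. Both groups were harvested after 5 days. The other 4 arrays came from the line with an empty pLIX vector, with and without doxycycline, and entered only the estimate of the spread between arrays. SUM159 is an established human triple-negative breast cancer line with mesenchymal features, and trailblazers are a subpopulation of it selected for leading collective invasion. Each vector was studied in 1 stable line, and the labels do not say whether it is a clone or a pool. Because the 4 arrays differ in doxycycline and in ΔNp63α together, effects of the drug and of the transcription factor cannot be told apart among them. Whether the replicates were grown apart is not said in the labels, so a p-value here reflects how far these arrays scatter, and that scatter may be technical.

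p63 is a member of the p53 family of transcription factors, and ΔNp63α is the isoform that lacks the N-terminal activation domain and prevails in the basal layer of stratified and glandular epithelia. In that layer it supports the adhesion of cells to the basement membrane, among other things through integrins, and the renewal of progenitor cells. In the mammary gland it marks the basal, myoepithelial layer, and in carcinomas it has been studied as a regulator of the balance between epithelial and mesenchymal states. The series title places the experiment in that last context.

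Levels are log2 intensities after background correction, and a difference is the induced mean minus the uninduced mean on that scale, so that 1 unit is a 2-fold difference. This scale understates the change of dim genes. A gene was tested where a probe lay above a background level on both arrays of at least 1 group, which left 12385 genes. On every array 48% to 48.1% of probes passed that level. Rank correlations were taken over all 23086 probes that passed this filter, with or without a gene symbol. They were 0.970 between the induced arrays, 0.972 between the uninduced arrays and 0.959 to 0.968 across the groups. The level of TP63 itself was not analysed here, so induction could not be checked against the gene. VIM, the intermediate filament of mesenchymal cells, had log2 intensities of 13.66 and 13.64 in induced cells, against 13.62 and 13.70 in uninduced cells. CD44, the hyaluronan receptor that marks this kind of line, had 11.90 and 12.05 in induced cells, against 11.75 and 11.76 in uninduced cells. Both are abundant in every array. Of 18 markers used to check the identity of the line, the 12 above background in at least 1 group included the simple keratins KRT8 and KRT18. The others were CDH2, FN1, ZEB1, ERBB2, GATA3, FOXA1, KRT14 and CD24, besides VIM and CD44. ERBB2 had mean log2 intensities of 8.25 in induced and 8.32 in uninduced cells. In the same order GATA3 (6.33 and 6.54), FOXA1 (6.21 and 6.25), ZEB1 (6.16 and 6.32), KRT14 (6.26 and 6.09) and CD24 (5.92 and 6.22) were dim. CD24 was not above the background level on either induced array, and KRT14 was not above it on either uninduced array. ZEB1 was above it on 1 induced array. CDH1, EPCAM, ESR1, PGR, KRT19 and KRT5 were not above background. Of 16 markers of blood and endothelial cells 6 were above background and 0 passed the test (limma), with 1 at an unadjusted p below 0.05.

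Induction changed 338 of the 12385 genes (2.73%) at a limma adjusted p below 0.05, with 177 higher (1.43%) and 161 lower (1.3%). A difference of more than 2-fold was found for 41 of the rises (0.331% of genes tested) and 20 of the falls (0.161%). The count of falls past 2-fold was 35 without induced replicate 1, 42 with a normexp offset of 16 and 8 without background correction, and the count of rises lay between 29 and 58 over the 19 alternatives. Over all genes tested the median difference was -0.01, with quartiles of -0.12 and 0.10. The median SE of a difference was 0.115. The smallest change that passed was 0.41 and the median size of a change that passed was 0.67. The induced and uninduced arrays did not overlap for 43.2% of all genes tested (induced higher in 20.3% and induced lower in 22.9%), and 0 of the 338 changed genes had overlapping groups.

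**Figure D1:**
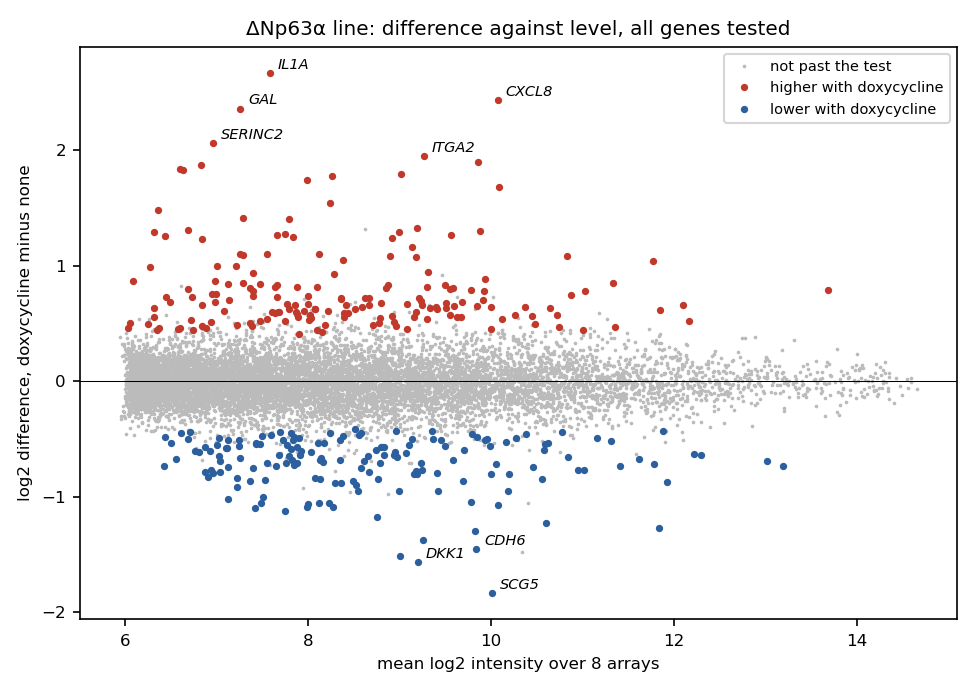
Difference between induced and uninduced cells (vertical axis, log2) against the mean log2 intensity over the 8 arrays (horizontal axis) for the 12385 genes tested; red points are the 177 genes higher with doxycycline, blue points the 161 lower, grey points did not pass. The rises reach 2.67 for IL1A, the falls -1.83 for SCG5, and changed genes occur over most of the range of levels.

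Changed genes were rarest among the dimmest genes. Of the 3097 genes with a mean log2 intensity below 6.44, 12 rose and 2 fell. The 3096 genes from there to 7.55 held 42 rises and 38 falls. Those from 7.55 to 9.16 held 69 rises and 67 falls, and the brightest 3096 genes held 54 of each. Rises outnumbered falls among the dimmest genes, and the directions were near balance at higher levels.

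The number of calls depended on single arrays. It was 122 without uninduced replicate 1, 124 without induced replicate 2, 197 without uninduced replicate 2 and 242 without induced replicate 1. It was 236 without either untreated empty-vector array and 340 without either doxycycline-treated one. Of the 338 genes, 90 (26.6%) kept their call and direction under all 19 alternatives, which include the omission of each of the 8 arrays in turn; 60 of them were higher and 30 lower. Among the 61 genes that changed by more than 2-fold, 49 did so, 36 higher and 13 lower. Genes that changed and are given below without a remark on an omitted array are among these 90. Remarks on a lost call mostly name omitted arrays, and some of these calls were also lost under other alternatives.

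**Figure D2:**
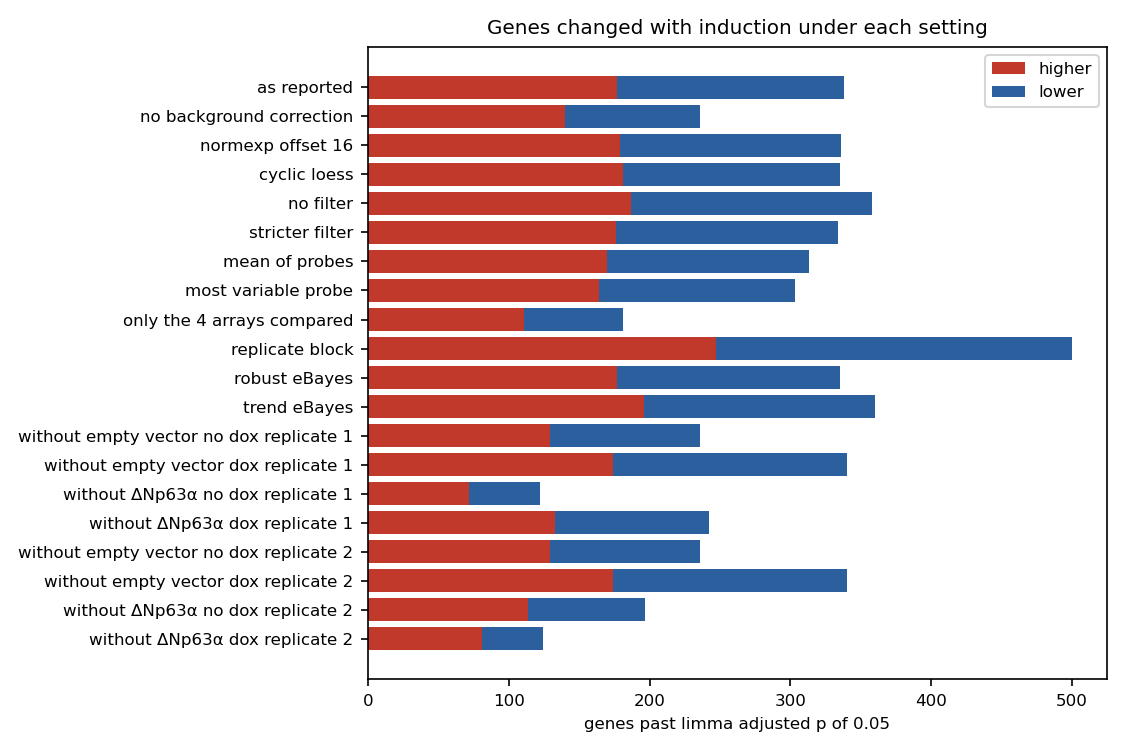
Number of genes past a limma adjusted p of 0.05 (horizontal axis) under the reported setting (top bar, 338 genes) and each of 19 alternatives; red is the part higher with doxycycline and blue the part lower. The bars with uninduced replicate 1 (122) or induced replicate 2 (124) left out are the shortest, and the longest is the replicate block (500).

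The largest rises were those of IL1A and CXCL8, which encode inflammatory ligands, while the related IL1B and CXCL2 rose less. Interleukin-1α and interleukin-1β are cytokines that signal through a shared receptor, CXCL8 and CXCL2 are chemokines that attract neutrophils, and all 4 genes are textbook outputs of NF-κB and AP-1 in epithelial cells. IL1A had log2 intensities of 9.07 and 9.41 in induced cells, against 6.45 and 6.69 in uninduced cells, a difference of 2.67 ± 0.14 (SE; limma adjusted p = 2.668e-06). IL1B had 6.98 and 7.60 in induced cells, against 5.87 and 6.12 in uninduced cells, where both arrays were under the background level. The rise of IL1B was therefore at least 2.24-fold (limma adjusted p = 0.001977). CXCL8 had 10.48 and 10.74 in induced cells, against 7.56 and 8.79 in uninduced cells (2.43 ± 0.35, limma adjusted p = 0.002722). Its uninduced arrays lay further apart than its induced arrays, but below both of them. CXCL2 was far dimmer, at 7.41 and 7.07 in induced cells, against 6.38 and 6.37 in uninduced cells (0.87 ± 0.13, limma adjusted p = 0.004089).

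Promoters of 3 genes that rose are printed as those, of 12 looked at one by one, that hold the letters of the AP-1 motif. Sequences are from RefSeq on GRCh38.p14, run 5′ to 3′ from 250 bases before the start of the gene to 50 bases after it, and capitals mark these letters, TGANTCA.
IL1A, chr2:112784444-112784743, minus strand: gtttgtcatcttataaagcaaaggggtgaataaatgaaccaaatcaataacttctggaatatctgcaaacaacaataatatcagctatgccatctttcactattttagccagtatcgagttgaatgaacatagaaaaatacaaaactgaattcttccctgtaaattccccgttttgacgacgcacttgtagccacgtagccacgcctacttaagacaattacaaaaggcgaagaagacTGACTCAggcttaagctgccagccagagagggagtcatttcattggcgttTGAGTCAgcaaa
CXCL8, chr4:73740319-73740618, plus strand: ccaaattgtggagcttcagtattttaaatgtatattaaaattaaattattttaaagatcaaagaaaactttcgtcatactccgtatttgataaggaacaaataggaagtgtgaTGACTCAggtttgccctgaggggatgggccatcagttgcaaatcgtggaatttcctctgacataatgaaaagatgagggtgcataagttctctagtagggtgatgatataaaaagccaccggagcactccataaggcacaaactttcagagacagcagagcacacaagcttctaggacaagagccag
SERPINB5, chr18:63476708-63477007, plus strand: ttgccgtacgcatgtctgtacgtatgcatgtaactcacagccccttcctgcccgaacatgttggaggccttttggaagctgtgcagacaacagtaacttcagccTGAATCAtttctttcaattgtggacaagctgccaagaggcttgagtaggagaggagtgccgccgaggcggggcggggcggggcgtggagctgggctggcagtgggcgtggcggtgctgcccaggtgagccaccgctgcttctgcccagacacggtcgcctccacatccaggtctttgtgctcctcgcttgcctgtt

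The letters TGANTCA occurred at 2 places in the IL1A window and at 1 place each in those of CXCL8 and SERPINB5. The windows of IL1B, ITGA2, AKR1C2, AKR1C3, SOD2, SCG5, DKK1, FSTL1 and CCN2, searched alongside, held it at 0 places. Among the changed genes with a promoter in the RefSeq table, 7 of 139 rises (5.04%) and 7 of 133 falls (5.26%) held this motif on either strand, against 4.66% of the 9850 genes tested that had a promoter and 7.76% of all 27305 promoters. For NF-κB a single fixed pattern was searched in the same way: a run of G, letters left free, a run of T and a run of C. That pattern occurred in 7 of 139 rises (5.04%) and 2 of 133 falls (1.5%). The pattern occurred in 2.11% of the promoters of genes tested and in 1.92% of all promoters. It was found at 0 places in the CXCL8 window. Other forms of the NF-κB site were not searched, so these shares are not shares of all such sites. The p53-family half-site, searched by its consensus, occurred in 12 of 139 rises (8.63%) and 8 of 133 falls (6.02%). It occurred in 5.42% of the promoters of genes tested and in 6.54% of all promoters. TATAAA occurred in 12.2% of rises and 9.02% of falls, against 6.2% of the promoters of genes tested and 12% of all promoters. These matches describe the letters in these windows, and none was tested or taken as a binding site.

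Of 15 measured genes for interleukin-1 ligands, receptors and adaptors, 5 rose and 0 fell, a share of 33.3% against 2.73% of all genes, and the median of the 15 was 0.05. Shares of the lists below stand against the same 2.73%. All lists were written with earlier results of these data known. The count was 2 without uninduced replicate 1 and 3 without induced replicate 2. CASP1, the protease that matures interleukin-1β, had 8.48 and 9.04 in induced cells, against 7.43 and 7.89 in uninduced cells (1.10 ± 0.24, limma adjusted p = 0.03262). Its call was lost when uninduced replicate 1 (0.87), induced replicate 2 (0.83) or either untreated empty-vector array (1.10) was left out. IL18R1, a receptor subunit for interleukin-18, rose by 0.84 ± 0.16 (limma adjusted p = 0.01652), and did not pass without uninduced replicate 1 (0.89), uninduced replicate 2 (0.80) or induced replicate 2 (0.67). IL1RL1, the receptor for interleukin-33, had 8.91 and 9.91 in induced cells, against 7.94 and 8.23 in uninduced cells, and did not pass (1.32 ± 0.34, limma adjusted p = 0.06754). The groups of IL1RL1 did not overlap, as for 43.2% of all genes tested, and its induced arrays differed by more than those of IL1A. It passed without induced replicate 1 (1.83) or either doxycycline-treated empty-vector array (1.32).

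Chemokines were few: CXCL8 and CXCL2 were the only 2 of 15 measured members that rose (13.3%), 0 fell, and the median of the 15 was -0.04. In a list of 32 NF-κB subunits and feedback genes 2 rose and 0 fell (6.2%), with a median of 0.10. Both are effector genes and not subunits of the pathway. SAA1, an acute-phase apolipoprotein, had 9.10 and 8.91 in induced cells, against 7.48 and 7.72 in uninduced cells (1.41 ± 0.12, limma adjusted p = 7.872e-05). SOD2, the mitochondrial superoxide dismutase, had 12.35 and 12.51 in induced cells, against 11.41 and 11.36 in uninduced cells (1.05 ± 0.10, limma adjusted p = 0.0001967). SAA1 has a near-identical paralog, SAA2, that its probe may not separate. LITAF, a lysosomal protein first described as a factor induced by lipopolysaccharide, had 11.14 and 11.23 in induced cells, against 9.52 and 9.06 in uninduced cells (1.90 ± 0.14, limma adjusted p = 2.844e-05). TNFRSF21, known as death receptor 6, fell, with 9.01 and 9.04 in induced cells, against 9.77 and 9.86 in uninduced cells (-0.79 ± 0.10, limma adjusted p = 0.00152).

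Receptors for the extracellular matrix moved in both directions. Of 18 measured integrin subunits 5 rose and 2 fell (38.9%), with a median of 0.03, and 3 rises and 0 falls were among the 90 genes that held throughout. The count of rises was 3 without uninduced replicate 1 and 3 without induced replicate 2. The count of falls was 0 without either of these arrays and 1 without any of the other ΔNp63α arrays or either doxycycline-treated empty-vector array. ITGA2, the α2 subunit of a collagen receptor, had 10.70 and 10.49 in induced cells, against 8.47 and 8.82 in uninduced cells (1.95 ± 0.13, limma adjusted p = 9.626e-06). ITGB4, the β4 subunit found in hemidesmosomes, had 7.97 and 8.12 in induced cells, against 6.29 and 6.14 in uninduced cells (1.83 ± 0.11, limma adjusted p = 5.871e-06). ITGA3, the α3 subunit of a laminin receptor, was already bright, with 11.78 and 11.75 in induced cells, against 10.56 and 10.80 in uninduced cells (1.09 ± 0.13, limma adjusted p = 0.00119). For each of the 3 subunits both induced arrays lay above both uninduced arrays, and the groups lay apart in every changed gene. ITGA11, the α11 subunit of a fibrillar collagen receptor of mesenchymal cells, went the other way, by -0.71 ± 0.16 (limma adjusted p = 0.04198). Over the 8 omissions of 1 array the difference of ITGA11 lay between -0.91 and -0.51. Its call was lost without uninduced replicate 1 (-0.62), uninduced replicate 2 (-0.80), induced replicate 2 (-0.51) or either doxycycline-treated empty-vector array (-0.71).

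Syndecan-1, a heparan sulfate proteoglycan of epithelial surfaces that cooperates with integrins, is encoded by SDC1. SDC1 had 9.08 and 9.21 in induced cells, against 7.55 and 7.24 in uninduced cells (limma adjusted p = 7.872e-05). SH3PXD2A encodes TKS5, a scaffold of invadopodia, and had 7.85 and 7.57 in induced cells, against 6.41 and 6.39 in uninduced cells (1.31 ± 0.11, limma adjusted p = 7.872e-05). MTSS1, an actin and membrane-bending scaffold first named for its loss in metastatic cells, had 8.78 and 8.41 in induced cells, against 7.38 and 7.25 in uninduced cells (1.28 ± 0.13, limma adjusted p = 0.0003434). In all 3 both induced arrays lay above both uninduced arrays, and the groups lay apart in every changed gene. ACTA2, the smooth muscle actin of myoepithelial cells and myofibroblasts, had 9.67 and 10.15 in induced cells, against 8.82 and 8.84 in uninduced cells (1.08 ± 0.15, limma adjusted p = 0.002135). The list of 25 smooth muscle contractile genes did not rise with ACTA2: its median was -0.01, with 3 higher and 2 lower (20% changed). TPM1, a tropomyosin that stabilises actin filaments, fell by 0.77 on the log2 scale (limma adjusted p = 0.03203), a call that was lost without uninduced replicate 1 (-0.63), uninduced replicate 2 (-0.91), induced replicate 2 (-0.52) or either untreated empty-vector array (-0.77). The 3 rises were 1 without uninduced replicate 1, induced replicate 1 or induced replicate 2, and the 2 falls were 0 without either uninduced array, induced replicate 2 or either untreated empty-vector array, and 1 without induced replicate 1.

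KRT75, a keratin of the hair follicle companion layer, had 7.84 and 8.30 in induced cells, against 6.20 on both arrays in uninduced cells (1.87 ± 0.14, limma adjusted p = 2.628e-05). Of 13 measured keratins 1 rose and 1 fell (15.4%), and the keratin that fell was KRT80 (-0.87 ± 0.17, limma adjusted p = 0.01763). The fall of KRT80 did not pass without uninduced replicate 1 (-0.72) or induced replicate 2 (-0.63). KRT14 did not pass (0.17), and KRT5 was not above background. SERPINB5, the serpin maspin of mammary myoepithelium, had 8.18 and 8.31 in induced cells, against 6.99 and 6.96 in uninduced cells (1.27 ± 0.10, limma adjusted p = 3.562e-05). S100A2, a calcium-binding protein of basal keratinocytes, had 8.49 and 7.91 in induced cells, against 6.98 and 6.59 in uninduced cells (1.41 ± 0.19, limma adjusted p = 0.001991). S100A4, a calcium-binding protein abundant in mesenchymal and metastatic cells, had 11.07 and 10.20 in induced cells, against 12.10 and 11.70 in uninduced cells (-1.27 ± 0.23, limma adjusted p = 0.01357). S100A2 and S100A4 thus moved in opposite directions, and the call for S100A4 was lost without uninduced replicate 1 (-1.07) or induced replicate 2 (-0.84). Of 22 measured S100 proteins and annexins 3 rose, 1 fell and 18 did not pass (18.2% changed), with a median of -0.02. DSG2, a desmosomal cadherin, had 10.86 and 10.79 in induced cells, against 10.12 and 10.23 in uninduced cells (0.65 ± 0.10, limma adjusted p = 0.004818), and did not pass without uninduced replicate 1 (0.59). The call for DSG2 was also lost with the mean of its probes (0.54) or its most variable probe (0.43). Of 16 measured desmosome and tight junction genes 1 rose, DSG2, and 0 fell (6.2%), with a median of 0.07. LAMB3, the β3 chain of the epithelial laminin-332, rose by 0.53 ± 0.10 (limma adjusted p = 0.01981), and its call was lost without any 1 of the 4 ΔNp63α arrays, with differences between 0.48 and 0.59. It was also lost with the mean of the LAMB3 probes (0.29). Of 20 measured genes for laminins and basement membrane 2 rose and 1 fell (15%), with a median of 0.24.

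**Figure D3:**
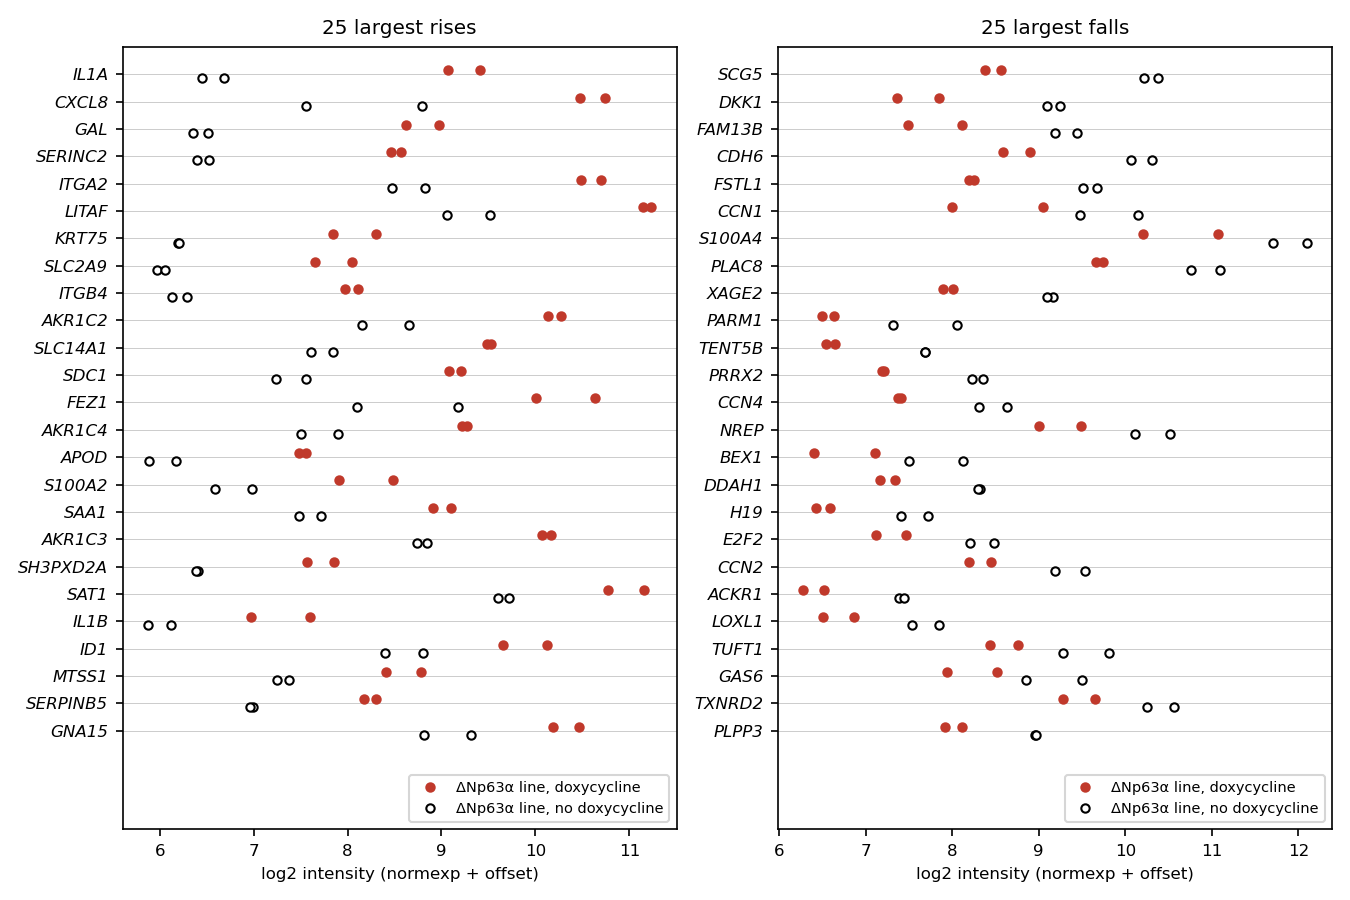
Log2 intensity on each of the 4 arrays (horizontal axis) for the 25 largest rises (left) and the 25 largest falls (right); filled points are the 2 induced arrays and open points the 2 uninduced arrays of the ΔNp63α line. As in every changed gene, the induced pair lies apart from the uninduced pair, while CXCL8, FEZ1 and CCN1 show wide gaps between replicates.

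A block of enzymes rose that act on steroids and prostaglandins. The aldo-keto reductases of the AKR1C family reduce ketosteroids and are also known as targets of the antioxidant factor NRF2. AKR1C2 had 10.28 and 10.14 in induced cells, against 8.66 and 8.16 in uninduced cells (1.80 ± 0.15, limma adjusted p = 4.953e-05). AKR1C3 had 10.07 and 10.17 in induced cells, against 8.84 and 8.74 in uninduced cells (1.33 ± 0.12, limma adjusted p = 7.89e-05). AKR1C4, the family member best known from the liver, had 9.27 and 9.22 in induced cells, against 7.89 and 7.51 in uninduced cells (1.54 ± 0.13, limma adjusted p = 4.953e-05). The 3 genes lie in a cluster and are close paralogs, so their probes may share signal and they are not independent observations. In the list of 36 measured NRF2 targets and AKR1C enzymes 4 rose and 0 fell (11.1%), with a median of 0.02. The fourth was SLC7A11, the cystine transporter, with 8.73 and 8.35 in induced cells, against 7.85 and 8.01 in uninduced cells (0.61 ± 0.13, limma adjusted p = 0.03298). SLC7A11 did not pass without uninduced replicate 1 (0.53), uninduced replicate 2 (0.69), induced replicate 1 (0.42) or either untreated empty-vector array (0.61). Outside the AKR1C cluster 1 of the other members thus passed.

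Polyamine metabolism gave 3 rises and 0 falls among 15 measured genes (20%), with a median of 0.09. SAT1, the acetyltransferase that starts the breakdown of spermidine and spermine, had 10.77 and 11.15 in induced cells, against 9.72 and 9.60 in uninduced cells (1.30 ± 0.15, limma adjusted p = 0.0007308). ARG2, the mitochondrial arginase that supplies ornithine, had 7.14 and 7.33 in induced cells, against 6.5 and 6.51 in uninduced cells (0.73 ± 0.11, limma adjusted p = 0.003128). In both genes the 2 induced arrays lay above the 2 uninduced arrays, and the groups lay apart in every changed gene. SMOX, spermine oxidase, rose by 0.64 ± 0.14 (limma adjusted p = 0.04002), and kept its call only without induced replicate 1, with differences between 0.39 and 0.88 over the 8 omissions of 1 array.

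Among 237 measured solute carriers 6 rose and 2 fell (3.4%, against 2.73% of all genes), with a median of 0.01. SLC2A9, a urate and hexose transporter, had 7.65 and 8.05 in induced cells, against 5.97 and 6.06 in uninduced cells, and since it did not pass the background level in either uninduced array it rose at least 3.30-fold (limma adjusted p = 2.844e-05). SLC14A1, a urea transporter, had 9.53 and 9.48 in induced cells, against 7.61 and 7.84 in uninduced cells (1.78 ± 0.11, limma adjusted p = 6.96e-06). SERINC2, a member of the serine incorporator family, had 8.57 and 8.47 in induced cells, against 6.52 and 6.39 in uninduced cells (2.06 ± 0.11, limma adjusted p = 2.668e-06). In each of the 3 both induced arrays lay more than 1 unit above both uninduced arrays, and the 3 were named for the size of their rise. The rises among solute carriers numbered 3 without uninduced replicate 1, and the falls 1 without induced replicate 1 and 0 without any 1 of the other ΔNp63α arrays. APOD, a lipocalin that carries small lipids, had 7.48 and 7.56 in induced cells, against 6.17 and 5.89 in uninduced cells (1.49 ± 0.12, limma adjusted p = 3.562e-05). ABCA1, the cholesterol exporter, had 8.87 and 8.79 in induced cells, against 8.02 and 8.0 in uninduced cells (0.82 ± 0.10, limma adjusted p = 0.001478). SLC44A1, a choline transporter, had 11.43 and 11.41 in induced cells, against 10.63 and 10.64 in uninduced cells (0.78 ± 0.10, limma adjusted p = 0.001156). ABCG1, a second sterol exporter, rose by 0.83 ± 0.18 (limma adjusted p = 0.03161), and did not pass without any 1 of the 4 ΔNp63α arrays (0.79 to 0.88) or either untreated empty-vector array (0.83). The call for ABCG1 was also lost with the mean of its probes (0.46).

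At the cell surface, 6 of 44 measured tetraspanins and immune-related surface proteins rose and 1 fell (15.9%), with a median of 0.01. The count of falls was 0 without uninduced replicate 2. Tetraspanins organise integrins and other receptors into membrane domains. TSPAN7 had 8.26 and 7.82 in induced cells, against 7.05 and 6.81 in uninduced cells (1.10 ± 0.15, limma adjusted p = 0.002081). CD82, a tetraspanin known as a suppressor of metastasis, had 9.23 and 8.92 in induced cells, against 8.21 and 7.83 in uninduced cells (1.06 ± 0.15, limma adjusted p = 0.002572). PROCR, the endothelial protein C receptor, which also marks a population of mammary cells in mice, had 9.83 and 9.93 in induced cells, against 8.56 and 8.70 in uninduced cells (1.25 ± 0.11, limma adjusted p = 6.29e-05). TSPAN13 rose by 0.94 ± 0.14 (limma adjusted p = 0.004818), and did not pass without uninduced replicate 1 (0.82).

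Signalling and regulatory genes that rose were scattered over pathways. GAL, the neuropeptide galanin, had 8.97 and 8.62 in induced cells, against 6.51 and 6.36 in uninduced cells (2.36 ± 0.13, limma adjusted p = 2.668e-06). GNA15, a G protein α subunit of the Gq class, had 10.19 and 10.47 in induced cells, against 8.82 and 9.31 in uninduced cells (1.26 ± 0.16, limma adjusted p = 0.001373). FOXA2, a forkhead factor of endoderm, had 9.84 and 9.61 in induced cells, against 8.70 and 8.43 in uninduced cells (1.16 ± 0.14, limma adjusted p = 0.001212). FOXA2 was thus well above background in both groups. HES1, a repressor downstream of Notch, had 7.76 and 7.92 in induced cells, against 7.01 and 7.06 in uninduced cells (0.81 ± 0.11, limma adjusted p = 0.002081). EIF4E3, a member of the family that binds the mRNA cap, had 8.28 and 8.26 in induced cells, against 7.39 and 7.48 in uninduced cells (0.84 ± 0.10, limma adjusted p = 0.001156). HES1 was the only riser among 21 measured Notch pathway genes (4.8%, against 2.73% of all genes), with 0 falls and a median of 0.05. That count was 2 without either doxycycline-treated empty-vector array.

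ID1, a dominant inhibitor of basic helix-loop-helix factors and a target of BMP signals, had 9.66 and 10.13 in induced cells, against 8.40 and 8.81 in uninduced cells (1.29 ± 0.20, limma adjusted p = 0.005827). Its call was lost without uninduced replicate 1 (1.09) or induced replicate 2 (1.06). FEZ1, a protein of axon growth, had 10.63 and 10.01 in induced cells, against 9.18 and 8.10 in uninduced cells (1.68 ± 0.29, limma adjusted p = 0.0107), and did not pass without induced replicate 1 (1.37). Feedback inhibitors of the ERK pathway gave 2 rises and 0 falls among 28 measured genes (7.1%, against 2.73% of all genes), with a median of 0.16. DUSP5, a phosphatase of nuclear ERK, had 11.62 and 11.87 in induced cells, against 10.76 and 11.03 in uninduced cells (0.85 ± 0.14, limma adjusted p = 0.008808). DUSP6, its cytoplasmic counterpart, had 8.47 and 8.68 in induced cells, against 7.58 and 7.95 in uninduced cells (0.81 ± 0.15, limma adjusted p = 0.01203). Both calls were lost without uninduced replicate 1 (DUSP5 0.72, DUSP6 0.63) or induced replicate 2 (DUSP5 0.73, DUSP6 0.71), where the count was 0. Of 9 measured receptors of the EGFR family and their ligands, 1 rose and 1 fell (22.2%), with a median of -0.05. Both were ligands of this receptor family. EREG, epiregulin, rose by 0.76 ± 0.15 (limma adjusted p = 0.01932), and did not pass without uninduced replicate 1 (0.62) or induced replicate 2 (0.66). NRG1, neuregulin-1, fell, with 8.03 and 7.86 in induced cells, against 8.69 and 8.78 in uninduced cells (-0.78 ± 0.12, limma adjusted p = 0.005975), and did not pass without induced replicate 2 (-0.70).

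The falls were led by secreted and surface proteins. SCG5, a chaperone of neuroendocrine secretory granules, had 8.57 and 8.37 in induced cells, against 10.22 and 10.38 in uninduced cells (-1.83 ± 0.11, limma adjusted p = 5.871e-06). DKK1, a secreted antagonist of Wnt receptors, had 7.84 and 7.37 in induced cells, against 9.24 and 9.09 in uninduced cells (-1.57 ± 0.20, limma adjusted p = 0.001508). CDH6, a type II cadherin, had 8.89 and 8.58 in induced cells, against 10.07 and 10.31 in uninduced cells (-1.45 ± 0.14, limma adjusted p = 0.0002045). In all 3 both induced arrays lay more than 1 unit below both uninduced arrays, and the 3 were named for the size of their fall. FAM13B had 8.11 and 7.49 in induced cells, against 9.44 and 9.18 in uninduced cells (-1.51 ± 0.19, limma adjusted p = 0.001373). PLAC8 had 9.66 and 9.74 in induced cells, against 10.76 and 11.09 in uninduced cells (-1.23 ± 0.14, limma adjusted p = 0.0006768). PLAC8 is a small cysteine-rich protein first found in placenta.

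Matricellular proteins signal to cells from within the matrix. Among 33 measured matricellular and elastic fibre genes 6 fell, 1 rose and 26 did not pass (21.2% changed), and the median was -0.05. The falls numbered 3 without induced replicate 2, and the count of rises was 0 without uninduced replicate 2. FSTL1, CCN4 and TGFBI are the 3 falls that held throughout. FSTL1, follistatin-like 1, a glycoprotein of mesenchymal cells, had 8.25 and 8.19 in induced cells, against 9.52 and 9.68 in uninduced cells (-1.37 ± 0.11, limma adjusted p = 3.562e-05). CCN4, a secreted protein induced by Wnt signals, had 7.37 and 7.40 in induced cells, against 8.64 and 8.31 in uninduced cells (-1.09 ± 0.12, limma adjusted p = 0.0007308). The induced arrays of FSTL1 and CCN4 were close together and below both uninduced arrays, and the groups lay apart in every changed gene. CCN1 and CCN2, classical targets of YAP and TEAD that are secreted into the matrix, fell as well. CCN1 had 9.04 and 7.99 in induced cells, against 10.15 and 9.47 in uninduced cells (-1.29 ± 0.29, limma adjusted p = 0.03846). CCN2 had 8.45 and 8.19 in induced cells, against 9.19 and 9.53 in uninduced cells (-1.04 ± 0.20, limma adjusted p = 0.01712). The call for CCN1 was lost without uninduced replicate 1 (-0.95), induced replicate 2 (-0.77) or any 1 of the 4 empty-vector arrays (-1.29), and that for CCN2 without uninduced replicate 2 (-0.88) or induced replicate 2 (-0.91).

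The promoter of CCN2 is printed as that of a TEAD target that fell, with capitals marking GGAATG, the letters of the TEAD motif.
CCN2, chr6:131951323-131951622, minus strand: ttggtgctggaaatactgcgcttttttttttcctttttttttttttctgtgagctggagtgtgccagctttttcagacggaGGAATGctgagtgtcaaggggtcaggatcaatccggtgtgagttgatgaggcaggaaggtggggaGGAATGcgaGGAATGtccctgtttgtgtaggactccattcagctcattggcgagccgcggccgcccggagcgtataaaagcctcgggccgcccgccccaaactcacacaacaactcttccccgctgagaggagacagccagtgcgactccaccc

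GGAATG occurred at 3 places in this window. The windows of the other falls looked at held it at 1 place (DKK1) or 0 places (SCG5 and FSTL1). It occurred on either strand in 13 of 139 rises (9.35%) and 17 of 133 falls (12.8%), against 11% of the promoters of genes tested and 14% of all promoters.

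Fibrillar collagens and the enzymes that process them gave 0 rises and 5 falls among 31 measured genes (16.1%), with a median of -0.24 against -0.01 over all genes. COL3A1, the collagen of reticular fibres, had 6.28 and 6.02 in induced cells, against 7.07 and 6.89 in uninduced cells (-0.83 ± 0.12, limma adjusted p = 0.003253). LOXL1, a lysyl oxidase that cross-links elastin and collagen, had 6.87 and 6.51 in induced cells, against 7.84 and 7.53 in uninduced cells (-1.0 ± 0.14, limma adjusted p = 0.002722). PLOD2, a lysyl hydroxylase that prepares collagen for cross-linking, had 10.45 and 10.26 in induced cells, against 11.15 and 11.10 in uninduced cells (-0.77 ± 0.11, limma adjusted p = 0.003573). The 3 genes span dim to bright levels. PCOLCE, an enhancer of procollagen cleavage, had 9.32 and 9.60 in induced cells, against 10.16 and 10.36 in uninduced cells (-0.80 ± 0.14, limma adjusted p = 0.009084), and did not pass without induced replicate 1 (-0.67) or uninduced replicate 2 (-0.71). COL1A1, the main collagen of bone and connective tissue, had 10.01 and 8.90 in induced cells, against 10.97 and 10.05 in uninduced cells, and did not pass (-1.05 ± 0.32, limma adjusted p = 0.1286). THBS1, thrombospondin-1, had 9.51 and 8.59 in induced cells, against 11.19 and 9.86 in uninduced cells, and did not pass either (-1.47 ± 0.36, limma adjusted p = 0.05703). In COL1A1 and THBS1 replicate 2 was lower than replicate 1 in both groups. Both passed when induced replicate 1 (COL1A1 -1.61, THBS1 -1.93) or uninduced replicate 2 (COL1A1 -1.51, THBS1 -2.14) was left out.

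Of 27 measured FGF, PDGF and VEGF ligands and receptors, a list that also holds related kinases, 4 fell, 0 rose and 23 did not pass (14.8% changed), with a median of -0.05. PDGFRB, the receptor for platelet-derived growth factor of fibroblasts and pericytes, had 7.53 and 7.55 in induced cells, against 8.37 and 8.38 in uninduced cells (-0.83 ± 0.10, limma adjusted p = 0.0007311). DDR2, a receptor tyrosine kinase for fibrillar collagen, had 8.18 and 8.03 in induced cells, against 8.73 and 8.77 in uninduced cells (-0.64 ± 0.10, limma adjusted p = 0.006736). AXL, a receptor tyrosine kinase of invasive breast cancer lines, had 11.98 and 11.77 in induced cells, against 12.47 and 12.56 in uninduced cells (-0.64 ± 0.12, limma adjusted p = 0.01789). GAS6, the ligand of AXL, had 8.52 and 7.94 in induced cells, against 9.50 and 8.85 in uninduced cells (-0.95 ± 0.22, limma adjusted p = 0.04339). The count of falls was 2 without uninduced replicate 1 and 1 without induced replicate 2. DDR2 did not pass without induced replicate 2 (-0.56). AXL did not pass without uninduced replicate 1 (-0.68), uninduced replicate 2 (-0.60) or induced replicate 2 (-0.54), and GAS6 without uninduced replicate 1 (-0.62), induced replicate 2 (-0.66) or either untreated empty-vector array (-0.95).

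Cadherins gave 4 falls and 0 rises among 21 measured cadherins and catenins (19%), with a median of -0.01, and the count was 1 without uninduced replicate 1, 2 without uninduced replicate 2 and 1 without induced replicate 2. CDH2, the N-cadherin of mesenchymal cells, had 10.98 and 10.88 in induced cells, against 11.46 and 11.43 in uninduced cells (-0.52 ± 0.11, limma adjusted p = 0.02497). CDH2 did not pass without any 1 of the 4 ΔNp63α arrays, with differences between -0.56 and -0.47. PRRX2, a homeobox factor of mesenchyme, had 7.22 and 7.19 in induced cells, against 8.23 and 8.35 in uninduced cells (-1.09 ± 0.16, limma adjusted p = 0.003173). PRRX2 was the only 1 of 31 measured factors linked to epithelial-to-mesenchymal transition and lineage that changed (3.2%, near the 2.73% of all genes), and the median of the 31 was 0.02. KLF2, a zinc finger factor of quiescent endothelium, fell by 0.80 on the log2 scale (limma adjusted p = 0.01548), and did not pass without uninduced replicate 1 (-0.74), uninduced replicate 2 (-0.86) or induced replicate 2 (-0.64).

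Other falls that held throughout had varied roles. DDAH1, an enzyme that degrades inhibitors of nitric oxide synthase, had 7.34 and 7.17 in induced cells, against 8.32 and 8.30 in uninduced cells (-1.05 ± 0.13, limma adjusted p = 0.001247). H19, an imprinted non-coding RNA, had 6.59 and 6.42 in induced cells, against 7.72 and 7.40 in uninduced cells (-1.05 ± 0.14, limma adjusted p = 0.00224). ACKR1, a decoy receptor that binds chemokines without signalling, had 6.28 and 6.52 in induced cells, against 7.38 and 7.45 in uninduced cells (-1.02 ± 0.12, limma adjusted p = 0.001094). In each of the 3 both induced arrays lay below both uninduced arrays, and the groups lay apart in every changed gene. TENT5B, a poly(A) polymerase, had 6.54 and 6.65 in induced cells, against 7.69 on both arrays in uninduced cells (-1.10 ± 0.12, limma adjusted p = 0.0006066). PLPP3, a phosphatase that degrades lysophosphatidic acid, had 7.92 and 8.11 in induced cells, against 8.95 and 8.97 in uninduced cells (-0.95 ± 0.11, limma adjusted p = 0.001074). XAGE2, a cancer/testis antigen, had 7.90 and 8.01 in induced cells, against 9.17 and 9.09 in uninduced cells (-1.18 ± 0.10, limma adjusted p = 7.872e-05). XAGE2 has close paralogs, and its probe may read them too. E2F2, a cell cycle factor, fell by 1.05 on the log2 scale (limma adjusted p = 0.02376) and was the only changed gene among 35 measured E2F factors, cyclins and CDK inhibitors (2.9%, near the 2.73% of all genes). It did not pass without uninduced replicate 1 (-0.91), uninduced replicate 2 (-1.19), induced replicate 2 (-0.88) or either untreated empty-vector array (-1.05).

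**Figure D4:**
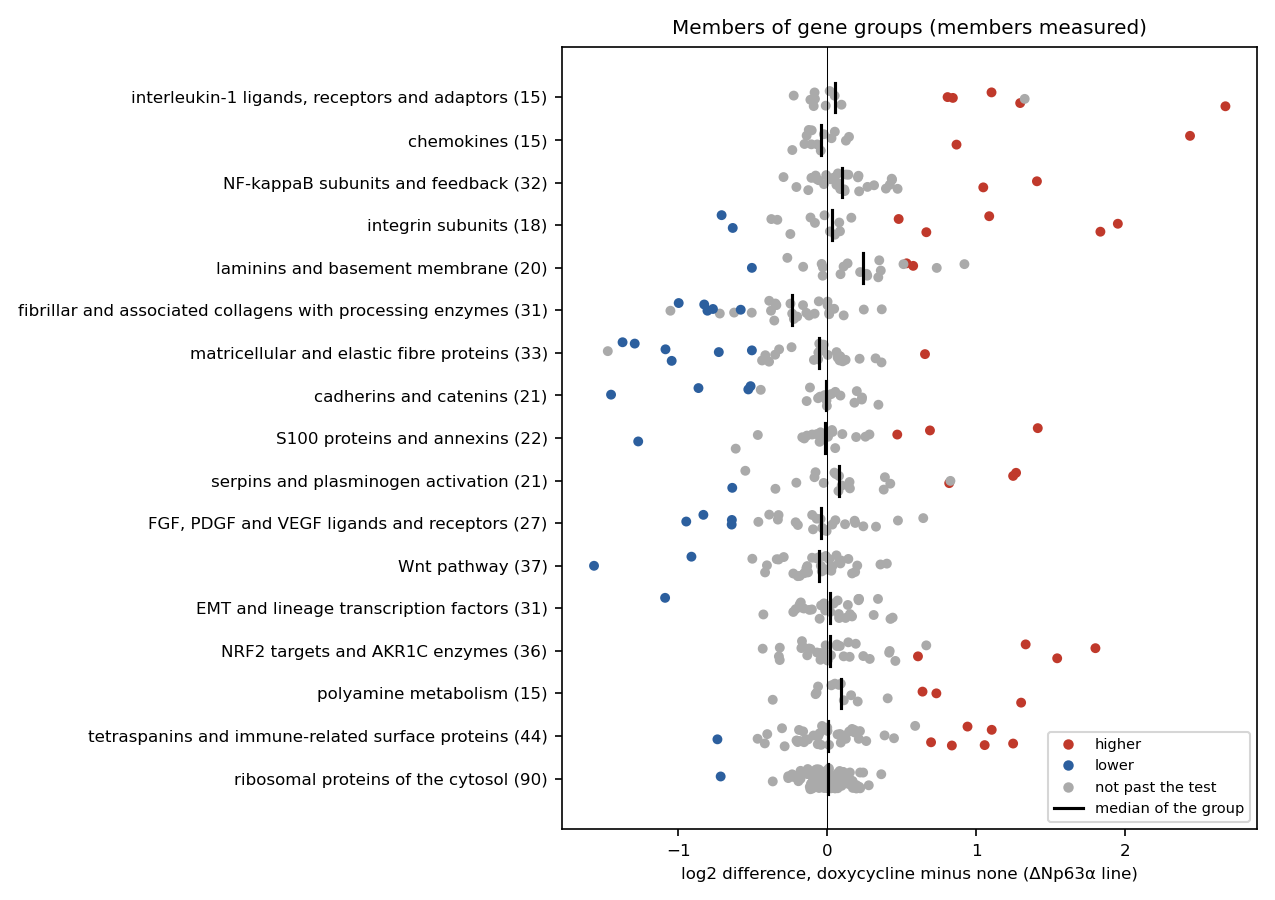
Log2 difference of every measured member (points) of 17 gene groups, with the number measured in brackets; red passed as higher, blue passed as lower, grey did not pass, and the black bar is the median of the group. Interleukin-1 genes, chemokines and AKR1C enzymes show a few large rises beside members near 0, the fibrillar collagens have a median of -0.24, and the 90 cytosolic ribosomal proteins lie close to 0 apart from 1.

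Some large gene families were counted as well, beside the share of 2.73% over all genes. Of 339 measured genes with the symbol prefix ZNF, which leaves out other zinc finger genes such as KLF2, 0 rose and 1 fell. The fall was that of ZNF385B, with 7.49 and 7.55 in induced cells, against 8.26 and 8.48 in uninduced cells (-0.85 ± 0.11, limma adjusted p = 0.001585). That count was 2 without induced replicate 1. Of 90 cytosolic ribosomal protein genes 1 changed, RPS27L, a p53 target, which fell by 0.72 on the log2 scale (limma adjusted p = 0.015) and did not pass without uninduced replicate 1 (-0.52) or induced replicate 2 (-0.68). By limma 0 passed among 34 proteasome subunits (6 at an unadjusted p below 0.05), 49 histones (4), 26 kinesins (1), 44 RAB GTPases (6), 45 TRIM proteins (7), 12 homeobox cluster genes (0) and 338 named long non-coding RNA genes (20). The list of long non-coding RNA genes was built from symbol prefixes and does not hold H19. Lists as short as most of these hold few calls at the overall share. At an unadjusted p below 0.05 the share was 13.6% over all genes, 17.6% among proteasome subunits, 15.6% among TRIM proteins and 13.6% among RAB GTPases.

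Genes that passed with both arrays of 1 group under the background level were few, with 6 of them above it only in induced cells and 1 only in uninduced cells. Besides SLC2A9 and IL1B, the rise of C16orf74 was at least 1.57-fold (limma adjusted p = 0.00224), with 6.63 and 6.91 in induced cells, against 5.86 and 5.95 in uninduced cells. TMEM40, OSCAR and MMP28 rose at least 1.30-fold, 1.39-fold and 1.17-fold. TMEM40 did not pass without any 1 of the 4 ΔNp63α arrays (0.47 to 0.55), OSCAR without uninduced replicate 1 (0.49), uninduced replicate 2 (0.51), induced replicate 2 (0.40) or either untreated empty-vector array (0.50), and MMP28 without any 1 of the 8 arrays (0.37 to 0.55). STAC2 had 6.03 and 5.90 in induced cells, against 6.70 and 6.69 in uninduced cells, and was at least 1.48-fold lower in induced cells (limma adjusted p = 0.002204). With no test required, 196 genes lay above the level only in induced cells and 210 only in uninduced cells.

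Other probes of the same genes gave a second reading that the calls above did not use. For 131 of the changed genes 178 further probes were kept. Of these 164 had the sign of the probe used, 85 of 94 for rises and 79 of 84 for falls, and 45 passed in the same direction in the fit over all 23086 kept probes, where 1.56% passed (0.862% as higher and 0.693% as lower). Of the 14 with the opposite sign 0 passed (limma). A further probe of CXCL8 had 9.57 and 9.47 in induced cells, against 7.19 and 7.75 in uninduced cells. Further probes of SOD2 (1.17), SAA1 (1.05), ITGB4 (1.05) and CD82 (0.84) also passed as higher, and a further probe of PLOD2 (-0.61) as lower. Another probe of SOD2 (0.35), of SAA1 (0.14) and of PLOD2 (-0.69) did not pass. Dimmer probes of CCN4 (-0.43), LOXL1 (-0.26), ITGA3 (0.41), SLC14A1 (0.40), SLC2A9 (0.18), DKK1 (-0.19), CDH6 (-0.10) and ID1 (0.07) had the sign of the gene but did not pass. All of these probes are on the same arrays and read the same RNA, so they are not replicates.

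**Figure D5:**
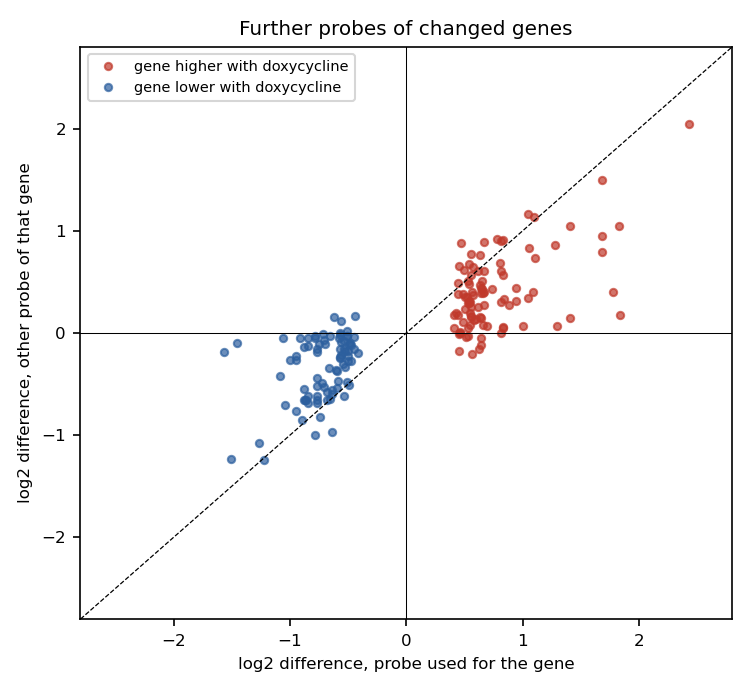
Log2 difference of further probes of changed genes (vertical axis) against that of the probe used for the gene (horizontal axis); red points belong to genes that rose, blue points to genes that fell, and the dashed line marks equal values. Most of the 178 points lie in the quadrant of their gene's direction and nearer to 0 than the dashed line.

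Among 6158 kept probes without a gene symbol, 17 passed as higher and 8 as lower. Probe ILMN_1656938 had 9.48 and 9.27 in induced cells, against 7.71 and 7.76 in uninduced cells, a difference of 1.64. Probe ILMN_1801442 had 6.69 and 6.72 in induced cells, against 8.23 and 8.09 in uninduced cells, a difference of -1.46.

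Some changed genes were direct neighbours on a chromosome, and whether more or fewer than the overall share of 2.73% would give was not tested. Of 7281 pairs of adjacent protein-coding genes that were both measured, in the gene order of RefSeq on GRCh38.p14, 12 pairs had both genes changed, 9 of them in the same direction, 5 higher and 4 lower. The pairs with the largest changes were AKR1C2 with AKR1C3 and IL1A with IL1B, which both rose. DDAH1 with CCN1 and TRNP1 with TENT5B fell as pairs, and ABCA1 with SLC44A1 rose as a pair. TRNP1 had 9.10 and 9.15 in induced cells, against 10.08 and 9.90 in uninduced cells (-0.86 ± 0.11, limma adjusted p = 0.001952). PLOD2 and PLSCR4 fell as neighbours, and PLSCR4, a scramblase family member, did not pass without uninduced replicate 1 (-0.89), uninduced replicate 2 (-0.82) or induced replicate 2 (-0.64). CCN1 is the other member of these pairs whose call was lost when 1 array was omitted, as given with its values (-1.29; -0.77 without induced replicate 2).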

How the data were processed

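RNA of 8 samples was read on single-colour Illumina arrays, per the labels' protocols. The probe intensity values that the authors deposited were used, for 47304 probes. The normalisation behind them is not given in the sources used here. All arrays hold nearly the same sorted values, with a floor of 89.2, so no background had been subtracted and the arrays had been brought to 1 distribution. A further table holds 16 columns of per-sample values whose names match no sample label and was not used. Intensities were corrected with normexp (offset 50) in limma 3.58.1 (R 4.3.3) and taken to log2. A probe was kept above 114.3, the mode of 106.9 plus 1.645 times the mirrored SD of 4.52, on both arrays of at least 1 group. Of all probes 30105 had 1 gene symbol, 8 several (not used for genes) and 17191 none listed, and the brightest of the 23086 kept probes stood for each gene. limma (lmFit, eBayes) used all 8 arrays in 4 groups, with 4 residual and 7.48 prior degrees of freedom, and two-sided p-values were adjusted by Benjamini-Hochberg over 12385 genes. The fit was checked on simulated data. The comparison, the members and the gene lists were chosen with earlier results of these data known. Named genes are the 25 largest rises and falls that passed, up to 4 that passed per list, genes below background in 1 group, the 6 largest that did not pass, neighbouring changed pairs, identity markers and 2 unnamed probes per direction; those described are the ones with the clearest roles. The number of arrays limits the precision. Alternatives covered background correction, offset, normalisation, filter, probe choice, samples fitted, the replicate block, eBayes options and the omission of each array. For an "at least" fold, the mean of the brighter group was set against, on each dim array, 6.12 (the smallest log2 intensity over the background level) or the probe's value where that is higher.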

Additional observations from a re-analysis of the deposited data

How the results depend on the processing

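The count of 338 changed genes was 181 in a fit of the 4 ΔNp63α arrays alone and lay between 122 and 340 over the omissions of 1 array. Omitting an array of a ΔNp63α group leaves 1 array there, which is then assumed to vary like the other groups. Under the other alternatives the count stayed within 1.5 times, with 236 without background correction, 303 with the most variable probe, 360 with trended eBayes and 500 with the replicate block. In the fit over all kept probes 359 passed, against 230 without background correction, 201 with the ΔNp63α arrays alone, 602 with the replicate block and 124 to 342 over the omissions. Same-numbered ΔNp63α arrays deviated together (correlation 0.432), but 2 pairs do not settle a pairing. With the replicate block THBS1 (adjusted p = 0.002697) and COL1A1 (adjusted p = 0.0321) passed by limma; the adjusted p of the reported setting is 0.05703 for THBS1 and 0.1286 for COL1A1. None of the named changed genes changed sign under the 19 alternatives. The balance of 177 higher and 161 lower genes was 247 higher and 253 lower with the replicate block. The cause of these shifts was not tested. Dim genes near background limit the lower end, since normexp with an offset compresses their differences.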

Other observations

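Several genes that held their call under all 19 alternatives fall outside the rule for named genes and were chosen after their values were seen. PLEK2, a pleckstrin family protein of the actin cortex, had 8.85 and 8.46 in induced cells, against 7.37 and 7.45 in uninduced cells (1.25). LIMA1, an actin-bundling protein known as EPLIN, had 9.72 and 9.79 in induced cells, against 8.62 and 8.73 in uninduced cells (1.08). CTSH, a lysosomal cathepsin, had 7.80 and 8.16 in induced cells, against 6.89 and 7.06 in uninduced cells (1.00). A dimmer probe of CTSH (0.07) did not pass. XDH, the enzyme that forms urate, had 6.98 and 7.03 in induced cells, against 6.14 and 5.90 in uninduced cells (0.99). Its product is a substrate of the transporter encoded by SLC2A9. TGFBI, a matrix protein named for its induction by TGF-β, had 12.56 and 12.53 in induced cells, against 13.39 and 13.15 in uninduced cells (-0.73). ADARB1, an RNA-editing deaminase, had 10.03 and 9.79 in induced cells, against 10.77 and 10.74 in uninduced cells (-0.84). CPE, a carboxypeptidase that matures peptide hormones in secretory granules, where SCG5 also acts, had 6.38 and 6.35 in induced cells, against 7.26 and 7.06 in uninduced cells (-0.79).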
